A study of Mus musculus with 4 samples.

Results

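The genes described here are the metalloproteinases of the MMP, ADAM, ADAMTS and ADAMTSL families and their inhibitors, the TIMPs, chosen by symbol alone and without Mmp9 and Mmp12, so that 82 of the 39056 genes of the count table are members. The study sequenced polyadenylated RNA from lungs of S1PR1-GFP reporter mice in 4 libraries, 1 for each label: no LPS, and 8, 16 and 20 h of lipopolysaccharide (LPS, a bacterial endotoxin) at 10 mg/kg into the peritoneum. All 4 libraries carry the reporter and the same sort, which took cells positive for GFP and CD31 and negative for CD45, labelled as S1PR1+ endothelial cells. The labels give no age, strain or number of animals per library, and a reporter gate marks any cell in which the S1pr1 reporter is active.

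Metalloproteinases are zinc enzymes that work outside the cell or at its surface. MMPs cut collagens, laminins and other matrix proteins, ADAMs release growth factors, cytokines and adhesion proteins from the cell surface, ADAMTS enzymes trim procollagens and cut proteoglycans, ADAMTSL proteins have the ADAMTS ancillary domains without the protease, and TIMPs bind and block the active enzymes. In the lung they are known for matrix turnover during inflammation and repair, and ADAM10 and ADAM17 in endothelium are known for shedding junction and adhesion proteins.

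With 1 library per label, no difference between labels has a replicate check, and "at 8 h" stands for the library with that label. Where 4 values of a gene or list follow each other, they are in label order: no LPS, then 8, 16 and 20 h. Totals ran from 27566454 to 28905776 reads, and a gene with 0 reads could have had up to 0.108 CPM (read counts relative to library totals that were scaled with TMM factors) in the library with the smallest scaled total. Endothelial transcripts went against the labels: of 13 pan-endothelial markers, 2 reached 1 CPM in any library, Erg, Emcn and Cldn5 had 0 reads in all 4, and Pecam1, which encodes CD31, had 7, 2, 2 and 1 reads. Summed marker levels were 5.77, 8.74, 8.30 and 5.99 CPM for the endothelial list, 8.85, 8.01, 8.66 and 9.10 CPM for the leukocyte list and 421, 325, 335 and 413 CPM for the fibroblast list, of which 4 of 8 genes were measured. Most of the fibroblast sum was Prrx1, at 210, 209, 213 and 211 CPM, and Col3a1, at 168, 81.8, 83.2 and 163 CPM. At 8 h the folds were 0.995 for Prrx1, 0.920 for Pdgfra, 0.488 for Col3a1 and 0.312 for Dcn. Col1a1, Col1a2 and Lum had at most 4 reads in any library, and Tcf21 had 0 reads in all 4. Within the endothelial list S1pr1, the gene whose reporter defined the sort, had 27, 87, 79 and 29 reads, 3.17-fold higher (2.04 to 5.08) at 8 h and 2.98-fold higher (1.91 to 4.81) at 16 h. The macrophage list (5 of 9 measured) summed to 126, 96.2, 94.3 and 129 CPM, most of it Cd68. Its low gene Adgre1 was 2.54-fold higher (1.27 to 5.44) at 8 h and 6.55-fold higher (3.54 to 13.2) at 16 h. Csf1r was 3.40-fold higher (1.57 to 8.14) at 16 h. Adgre1 and Csf1r passed 1 CPM only in libraries labelled 8 h or 16 h, which favours folds above 1. The other measured genes of the list had folds at 16 h of 0.622 (Cd68), 1.14 (Lyz2) and 1.02 (Mrc1). The smooth muscle list (1 of 7) summed to 7.78, 5.02, 4.69 and 7.87 CPM, the neutrophil list (1 of 7) to 1.42, 0.383, 0.397 and 1.08 CPM, with S100a8 at 34, 6, 7 and 25 reads, and the lung epithelial list (0 of 8) to 1.10, 0.453, 0.722 and 1.01 CPM. The mitochondrially encoded share of reads was 1.80%, 1.36%, 1.40% and 1.90%. The part of these shifts in the differences below was not tested, and in bulk RNA fewer cells of a type and less RNA per cell cannot be told apart.

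The libraries labelled 8 h and 16 h were the closest pair, followed by those labelled no LPS and 20 h. Among all 11803 measured genes (at least 1 CPM in at least 1 library), the median absolute log2 ratio was 0.27 between 8 h and no LPS, 0.05 between 16 h and 8 h, and 0.08 between 20 h and no LPS. The 28 measured members had medians of 0.45, 0.05 and 0.08 for the same pairs. Between 16 h and 8 h the mean chi-square per gene, which is about 1 for pure sampling of reads, was 1.03 over these members and 1.63 over all measured genes. For 20 h against no LPS it was 1.91 and 7.36, so over all genes that pair differed by more than sampling of reads. For 8 h against no LPS it was 71.4 over the members and 75.3 over all measured genes, so the members' differences between those libraries were far above counting noise.

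**Figure D1:**
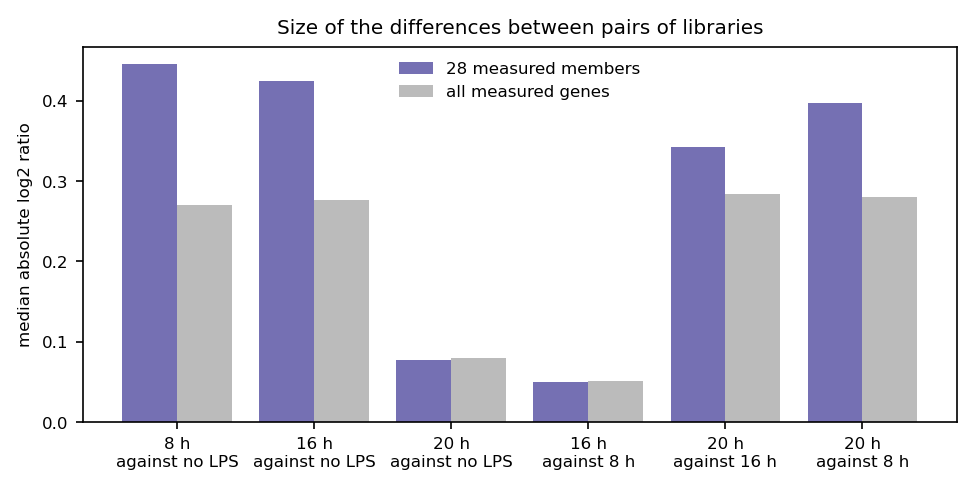
Bars give the median absolute log2 ratio (vertical axis, prior count 2) for each of the 6 pairs of libraries, over the 28 measured members and over all measured genes, with 1 library per label. The pairs 16 h against 8 h and 20 h against no LPS are the low ones, at 0.05 and 0.08 for the members.

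Some members have a shared promoter feature that the choice by symbol did not use, shown here before the expression values. Of the 82 members, 52 had a promoter in the RefSeq table for GRCm38.p6, and the 250 bases before each start were searched on both strands for the AP-1 motif TGANTCA, the SP1 motif GGGCGG and the cAMP response motif TGACGTCA, none of which contains another. The 9 members of the MMP cluster on chromosome 9 (7272514 to 7699585, mm10) are neighbours around the excluded Mmp12, and 7 of the 9 held an AP-1 motif. Of the 52 matched members 11 held it, these 7 included. It lay in 6.73% of 32536 promoter windows of the same length, and in 4.34% of the windows of measured genes. A member counted if any of its windows held the motif, while the shares are per window. Of the 22 measured members with a promoter in the table, 4 held it, namely Adam19, Mmp3, Mmp10 and Mmp13. Mmp3, Mmp10 and Mmp13 are the 3 measured genes of the cluster. The last 100 bases before their starts are given below because the motif sits within them, in capitals, 5′ to 3′ on the plus strand.
Mmp3 (chr9:7445722-7445821): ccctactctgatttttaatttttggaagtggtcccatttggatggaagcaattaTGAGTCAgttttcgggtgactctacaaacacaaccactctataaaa
Mmp10 (chr9:7502242-7502341): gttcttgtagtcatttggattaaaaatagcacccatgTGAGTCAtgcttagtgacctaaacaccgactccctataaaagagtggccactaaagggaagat
Mmp13 (chr9:7272414-7272513): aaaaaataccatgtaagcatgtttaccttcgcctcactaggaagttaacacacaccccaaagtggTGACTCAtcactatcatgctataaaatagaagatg

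The motif began 46 bases before the start in Mmp3, 63 in Mmp10 and 35 in Mmp13. The members with the largest differences between libraries and a promoter in the table were Timp1 and Mmp23, and neither held the AP-1 motif in this window. Their last 100 bases are shown in the same way, on the plus strand for Timp1 (SP1 motif in capitals, as its reverse complement) and on the minus strand for Mmp23 (none of the 3 motifs).
Timp1 (chrX:20870066-20870165): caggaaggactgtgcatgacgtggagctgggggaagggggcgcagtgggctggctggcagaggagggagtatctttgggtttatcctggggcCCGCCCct
Mmp23 (chr4:155653385-155653484): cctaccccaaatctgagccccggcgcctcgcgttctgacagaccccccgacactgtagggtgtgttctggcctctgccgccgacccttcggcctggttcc

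The SP1 motif was found in 16 of 22 measured members with a promoter in the table, against 59.0% of the windows of measured genes, and the cAMP response motif in 0 of 22, against 2.71%. A match is a stretch of letters and not a measured binding site.

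Of the 82 members, 28 (34.1%) were measured, against 30.2% of all genes in the table. They were 2 of 4 TIMPs, 6 of 14 secreted MMPs, 3 of 7 membrane MMPs, 6 of 33 ADAMs, 8 of 19 ADAMTS genes and 3 of 5 ADAMTSL genes. The other 54 lay below 1 CPM in every library, 22 of them with 0 reads in all 4 and 26 with some reads but fewer than 10 in any library. The highest of the 54 were Adamts3, a procollagen N-proteinase gene, at 21, 21, 18 and 24 reads, Adam1a at 24, 17, 6 and 13 reads, and Adam4 at 15, 7, 13 and 22 reads. Adam1a shares 4779 exon bases with the gene model Gm42878 on the same strand, so its reads are uncertain.

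Several well-known members were among these low genes. Mmp2, the gelatinase that TIMP2 and MMP14 together activate, had 3, 4, 4 and 4 reads, while Timp2 had at least 1690 reads and Mmp14 at least 2569 in every library. Mmp8, the neutrophil collagenase, had 3, 0, 4 and 3 reads, and Mmp7, the epithelial matrilysin, had 0 in all 4. Timp3, a TIMP that binds to matrix, had 3, 4, 4 and 3 reads, and Timp4 had 0 in all 4. Adamts5, the aggrecanase next to Adamts1 on chromosome 16, had 3, 1, 2 and 5 reads against 4607, 2931, 2662 and 4682 for its neighbour. On chromosome 8 Adam9 was the 1 measured gene of 5 neighbours (24602246 to 25016927), the others being Adam18, Adam3, Adam5 and Adam32, and the 7 members of 2 further clusters on that chromosome, at 40675077 to 40827037 and 43519762 to 43710049, had no read in any library.

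Levels of different genes were compared per length, as scaled CPM divided by the annotated exon length in kilobases (RPKM), averaged over the 4 libraries. Adam9 was highest at 86.9 RPKM, followed by Adamts14 at 36.0, Adam10 at 33.1, Timp1 at 30.0 and Adam17 at 26.8, and the lowest measured member was Adamts12 at 0.0707. These 5 made up 56.0% of the summed RPKM of all members in the library labelled no LPS, and 61.4%, 61.3% and 56.0% in the later ones. The family's message was thus mostly that of a few genes, with surface sheddases and a procollagen N-proteinase at the top. The place of Timp1 depended on the library: at 18.2, 42.7, 41.8 and 17.2 RPKM it lay below Adamts1 (30.7 and 31.9) and Mmp19 (28.7 and 27.8) with no LPS and at 20 h, and second to Adam9 at 8 h and 16 h. Members took 0.172%, 0.156%, 0.155% and 0.173% of all reads.

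**Figure D2:**
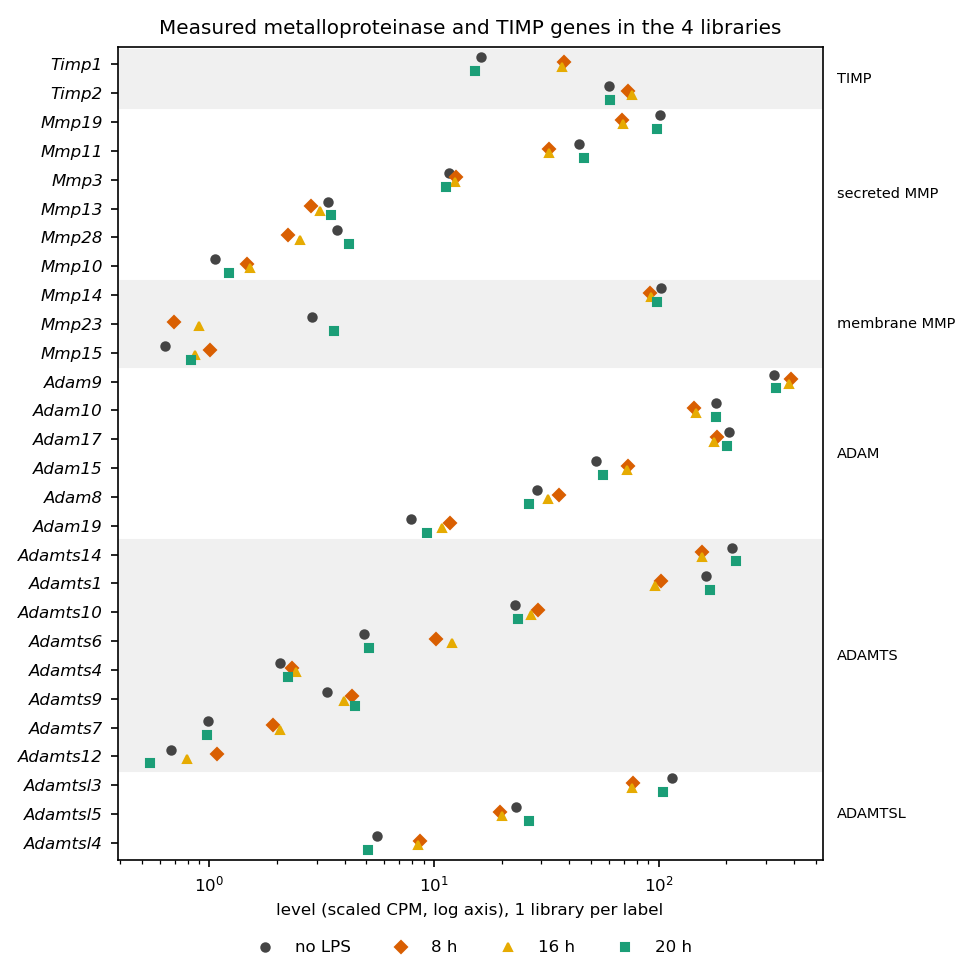
Points give the level of each of the 28 measured members in each of the 4 libraries (horizontal axis, scaled CPM on a log axis), grouped by family. For Timp1, Adamts6, Adamts7 and Mmp23 the 8 h and 16 h points lie apart from the no LPS and 20 h points, which lie close together. Uncalled members such as Adamts1, Adamts14 and Mmp19 show the same arrangement with smaller folds.

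Calls between libraries follow a rule of size and are not tests: the scaled levels differ 2-fold or more, the 95% counting interval of that ratio (exact conditional binomial) lies clear of 1, and the larger level is 1 CPM or above. At 8 h against no LPS, 2 members were higher, Timp1 and Adamts6, and 1 was lower, Mmp23. Among all measured genes 4.19% were higher and 4.13% lower, against 7.14% and 3.57% of the 28 members, so the counts were near the background. At 16 h against no LPS, 3 members were higher, Timp1, Adamts6 and Adamts7 (background 4.13%), and Mmp23 was lower (background 4.09%). Adamts7 was measured only through the libraries labelled 8 h and 16 h, and Mmp23 only through those labelled no LPS and 20 h. The filter on level thus favoured the directions called for these genes, here and at 20 h against 16 h. The background genes passed the same filter. At 20 h against no LPS 0 members were called in either direction (background 0.551% higher and 0.102% lower).

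Between successive LPS labels, 0 members were called for 16 h against 8 h (background 0.161% higher and 0.0763% lower). At 20 h against 16 h the same 4 genes named for 16 h were called in the opposite direction: Mmp23 was higher (background 4.63%) and Timp1, Adamts6 and Adamts7 were lower (background 3.85%). The comparisons of 16 h with no LPS and with 20 h share the 16 h library. A straight-line trend over the label hours in edgeR's quasi-likelihood test, with all 4 libraries, called 0 of 28 members and 0 of 11803 genes after Benjamini-Hochberg adjustment. At an unadjusted p under 0.05 it gave 0 members and 43 genes, and DESeq2's Wald test also called 0 members and 0 genes, with 0 members and 25 genes at an unadjusted p under 0.05. The line has a single slope and cannot describe a level that is high or low at the middle labels.

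Without the fold threshold, 10 members had an interval above 1 and 11 an interval below 1 at 8 h against no LPS (backgrounds 35.3% and 34.7%), and 10 and 11 at 16 h (35.7% and 35.0%). At 20 h the counts were 3 and 1 (14.6% and 11.8%). For 16 h against 8 h they were 1 and 2 (5.23% and 5.24%), and for 20 h against 16 h 11 and 9 (36.5% and 34.6%). At 8 h both measured TIMPs lay above 1, and the 5 MMPs outside 1 (Mmp11, Mmp19, Mmp28, Mmp14 and Mmp23) all lay below it. The other measured MMPs had intervals that included 1. Their folds were 1.07 for Mmp3, 1.38 for Mmp10, 0.839 for Mmp13 and 1.59 for Mmp15. The median log2 ratio of the 28 members was 0.21, 0.19 and 0.04 at 8, 16 and 20 h, against 0.00, 0.01 and 0.00 over all measured genes. Adamts7, Adamts12 and Mmp15 reached 1 CPM only in libraries labelled 8 h or 16 h, and Mmp23 only in those labelled no LPS and 20 h. That filter shapes the direction of their ratios, so nothing is read from these medians.

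**Figure D3:**
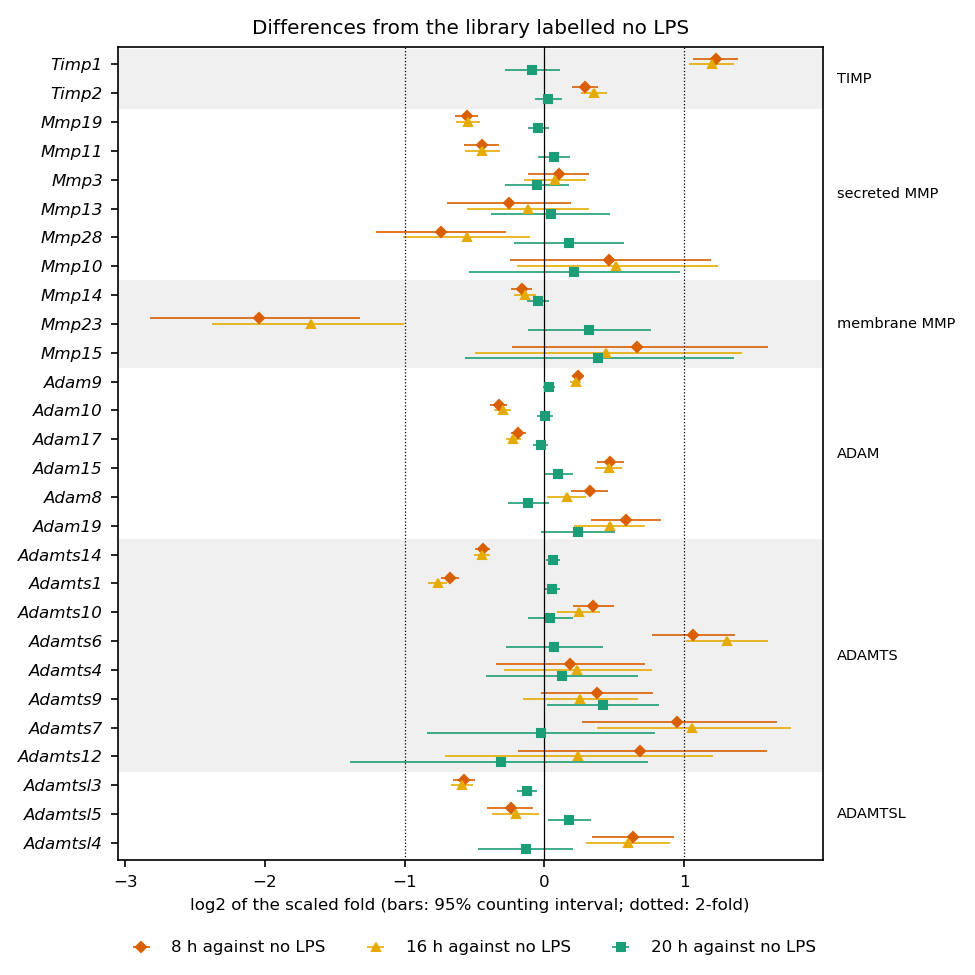
Points give the log2 of the scaled fold of each measured member against no LPS at 8, 16 and 20 h (horizontal axis), with 95% counting intervals as bars and 2-fold marked by dotted lines. At 20 h all 28 points lie within the 2-fold lines, and at 8 h and 16 h Timp1, Adamts6 and Mmp23 lie outside them, as does Adamts7 at 16 h.

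Among the inhibitors, Timp1, an inducible inhibitor of MMPs with growth factor activity (chromosome X, 20870166 to 20874735, plus strand), had 458, 1088, 1029 and 423 reads. Scaled levels were 16.2, 37.9, 37.1 and 15.3 CPM, high in the libraries labelled 8 h and 16 h and alike in the remaining ones. The fold against no LPS was 2.34 (95% interval 2.09 to 2.61) at 8 h, 2.29 (2.05 to 2.56) at 16 h and 0.943 (0.824 to 1.08) at 20 h, on log2 ratios of 1.22, 1.19 and -0.08. Timp2, the constitutive inhibitor that also takes part in MMP2 activation (chromosome 11, 118301069 to 118355740, minus strand), had 1691, 2102, 2115 and 1690 reads. Its log2 ratios against no LPS were 0.29, 0.35 and 0.03, with folds of 1.22 (1.15 to 1.31), 1.28 (1.20 to 1.36) and 1.02 (0.953 to 1.09), so it moved in the direction of Timp1 by less and was not called. Per length, the Timp1 level was 1.19 times that of Timp2 in the library labelled no LPS, and 2.27, 2.13 and 1.10 times in the later ones.

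Secreted MMPs were led per length by Mmp19, an MMP that cuts basement membrane proteins, and Mmp11, stromelysin-3, which is activated by furin inside the cell. Mmp19 stood at 101, 69.0, 69.4 and 98.3 CPM, and its fold at 8 h was 0.681 (0.642 to 0.721). Mmp11 stood at 44.3, 32.5, 32.6 and 46.4 CPM, with a fold of 0.732 (0.672 to 0.798). Mmp28, epilysin, showed the same shape at low level, at 3.72, 2.23, 2.53 and 4.19 CPM and a fold of 0.600 (0.433 to 0.827). In these 3 genes the levels at 8 h and 16 h were the low ones, and none reached the 2-fold rule.

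The 3 measured genes of the chromosome 9 cluster, whose promoters are printed above, had the AP-1 motif in common, and none of them was called. Adam19, the other measured member with that motif, was also uncalled. Its intervals lay above 1, at 1.497-fold (1.26 to 1.78) at 8 h and 1.38-fold (1.16 to 1.65) at 16 h. Mmp3, stromelysin-1, which cuts matrix and activates other MMPs, stood at 11.7, 12.6, 12.3 and 11.3 CPM, with folds between 0.965 and 1.07 against no LPS. Mmp13, collagenase-3, stood at 3.36, 2.82, 3.10 and 3.47 CPM, and Mmp10, stromelysin-2, at 1.06, 1.46, 1.52 and 1.23 CPM. For each of these 3 cluster genes every interval against no LPS included 1. The intervals of Mmp10, which rest on 30, 42, 42 and 34 reads, were wide. Its folds were 1.38 (0.842 to 2.28) at 8 h and 1.43 (0.873 to 2.36) at 16 h. Summed over all 14 secreted MMPs, the level was 166, 121, 122 and 165 CPM.

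The membrane MMPs held the member with the largest fold. Mmp23, a type II membrane MMP that is released by furin-type cleavage (chromosome 4, 155650655 to 155653384, minus strand), had 81, 20, 25 and 99 reads, or 2.87, 0.697, 0.902 and 3.57 CPM. It was 4.11-fold lower (2.50 to 7.09) at 8 h and 3.18-fold lower (2.01 to 5.19) at 16 h, and its fold at 20 h was 1.25 (0.921 to 1.69). Both low libraries lay below 1 CPM, so the size of the difference rests on few reads, and a minimum of 10 CPM left the gene uncalled. Mmp14, MT1-MMP, the main surface collagenase and activator of proMMP2, stood at 102, 91.2, 92.7 and 98.8 CPM, with a fold of 0.894 (0.847 to 0.943) at 8 h. Mmp15, MT2-MMP, stood at 0.637, 1.01, 0.866 and 0.831 CPM, and all 3 of its intervals against no LPS included 1.

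All 6 measured ADAMs stayed within 1.5-fold of the library labelled no LPS at 8, 16 and 20 h, and all 6 intervals at 8 h and at 16 h excluded 1. Adam9, a widely expressed sheddase (chromosome 8, 24949611 to 25016927, minus strand), stood at 327, 387, 382 and 335 CPM, 1.18-fold higher (1.15 to 1.21) at 8 h. Adam10, the sheddase of Notch receptors and cadherins (chromosome 9, 70678997 to 70780229, plus strand), stood at 180, 144, 146 and 180 CPM, with a fold of 0.797 (0.765 to 0.830) at 8 h. Adam17, which releases TNF and EGF receptor ligands (chromosome 12, 21323509 to 21373632, minus strand), stood at 206, 181, 177 and 203 CPM, with a fold of 0.879 (0.846 to 0.912).

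The 3 remaining measured ADAMs were all higher at 8 h within that range. Adam15 stood at 52.7, 73.1, 72.5 and 56.4 CPM, with a fold of 1.39 (1.30 to 1.48) at 8 h. Adam19, a sheddase of neuregulins, stood at 7.89, 11.8, 10.9 and 9.32 CPM, with a fold of 1.497 (1.26 to 1.78). Adam8, best known in leukocytes, stood at 28.8, 36.1, 32.2 and 26.6 CPM, with a fold of 1.25 (1.14 to 1.37) at 8 h. Leukocyte and macrophage markers differed among themselves in the same libraries: Ptprc, which encodes CD45, had 42, 37, 31 and 38 reads, Cd53 had 14, 24, 24 and 34, and Adgre1, which encodes the macrophage protein F4/80, had 12, 31, 77 and 24. Their part in the Adam8 level was not tested. Adam10 and Adam17, the sheddases with the widest known substrate range, thus stood on the lower side of no LPS at 8 h and the other 4 ADAMs on the higher side, and the summed ADAM level was 806, 835, 824 and 813 CPM.

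The ADAMTS family held both a called pair of genes and some of the most abundant members. Adamts6, a little-characterised relative of Adamts10 linked to heart development and fibrillin (chromosome 13, 104287835 to 104496695, plus strand), had 138, 293, 334 and 142 reads. It was 2.09-fold higher (1.70 to 2.58) at 8 h and 2.47-fold higher (2.02 to 3.03) at 16 h, with a fold of 1.05 (0.825 to 1.34) at 20 h. For 16 h against 8 h it was the 1 measured member with an interval above 1, at 1.18-fold (1.01 to 1.39). That was 3.57% of the 28 members, against 5.23% of all measured genes, so nothing is read from it. Adamts7, which cuts cartilage oligomeric matrix protein and thrombospondins (chromosome 9, 90163069 to 90208071, plus strand), had 28, 55, 57 and 27 reads. Its fold was 1.93 (1.21 to 3.17) at 8 h, below the 2-fold rule, and 2.08 (1.30 to 3.39) at 16 h, above it, though a stricter interval level or a minimum of 10 CPM ended that call. The calls at 8 h and 16 h therefore differ for Adamts7, although its fold between these 2 libraries was 1.07 (0.728 to 1.58). Adamts12, which is related to Adamts7 in domain structure, stood at 0.672, 1.08, 0.794 and 0.542 CPM. Its 3 intervals against no LPS included 1, while its fold for 20 h against 8 h was 0.502 (0.252 to 0.958). Adamts12 reached 1 CPM in the library labelled 8 h alone, so the filter on level favoured a fold below 1 there, and nothing is read from it.

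The abundant ADAMTS genes lay on the other side of no LPS. Adamts14, a procollagen N-proteinase (chromosome 10, 61197112 to 61273438, minus strand), stood at 213, 157, 156 and 222 CPM, with a fold of 0.736 (0.708 to 0.765) at 8 h. Adamts1, which cuts versican and aggrecan and binds VEGF (chromosome 16, 85793827 to 85803113, minus strand), stood at 163, 102, 96.1 and 169 CPM. It was 1.60-fold lower (1.52 to 1.67) at 8 h and 1.70-fold lower (1.62 to 1.78) at 16 h, while its fold at 20 h was 1.04 (0.996 to 1.08). The collagen gene Col3a1, whose procollagen is a substrate class of the N-proteinases, and Vcan, which encodes versican, are given with the matrix genes below.

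Of the remaining ADAMTS genes, Adamts10, a fibrillin-binding member, stood at 22.9, 29.2, 27.1 and 23.5 CPM, 1.28-fold higher (1.15 to 1.42) at 8 h. Adamts4, an aggrecanase, stood at 2.05, 2.33, 2.42 and 2.24 CPM, and Adamts9, a versicanase, at 3.33, 4.32, 3.97 and 4.44 CPM. The intervals of Adamts4 all included 1, and Adamts9 had an interval above 1 at 20 h only, at 1.34-fold (1.01 to 1.77), while its intervals between the 3 LPS labels all included 1. Summed ADAMTS levels were 412, 309, 302 and 429 CPM, a sum that Adamts14 and Adamts1 dominate, so it ran opposite to the called genes Adamts6 and Adamts7.

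ADAMTS-like proteins have no protease domain and act in the matrix around fibrillin microfibrils. Adamtsl3, also known as punctin-2, stood at 114, 76.8, 76.0 and 105 CPM, with folds of 0.672 (0.636 to 0.710) at 8 h, 0.665 (0.629 to 0.702) at 16 h and 0.916 (0.871 to 0.963) at 20 h. Adamtsl4, which promotes fibrillin-1 deposition, stood at 5.59, 8.67, 8.45 and 5.09 CPM, 1.55-fold higher (1.27 to 1.91) at 8 h. Adamtsl5 stood at 23.3, 19.7, 20.2 and 26.4 CPM, with a fold of 0.845 (0.754 to 0.947) at 8 h and 1.13 (1.02 to 1.26) at 20 h. The 3 genes thus differed in direction at 8 h, and none was called.

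Other genes of the system were taken from 3 lists, whose counts stand beside the shares of all measured genes given above: 4.19% higher and 4.13% lower at 8 h, 4.13% and 4.09% at 16 h, and 0.551% and 0.102% at 20 h. Of 29 regulators and activators 21 were measured, with 1 higher and 0 lower at 8 h and 0 called at 16 h and at 20 h, and medians of 0.23, 0.22 and 0.01. The tetraspanin gene Cd151 stood at 21.02, 43.5, 39.9 and 21.4 CPM, 2.07-fold higher (1.87 to 2.28) at 8 h. Plau, urokinase, which generates the MMP activator plasmin, stood at 38.0, 70.7, 70.4 and 34.8 CPM, and Bmp1, the procollagen C-proteinase, at 68.7, 121, 118 and 69.2 CPM, both under the 2-fold rule. Reck, a membrane inhibitor of MMPs, stood at 2.05, 3.55, 3.47 and 1.95 CPM, and Furin, which activates many members, at 56.2, 52.8, 52.3 and 57.4 CPM.

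Of 35 genes whose products ADAMs are known to shed, 26 were measured, with 5 higher and 0 lower at 8 h, 6 higher and 0 lower at 16 h and 0 called at 20 h, and medians of 0.19, 0.28 and -0.01. Axl, a receptor kinase, stood at 238, 586, 575 and 232 CPM, 2.46-fold higher (2.39 to 2.53) at 8 h. The EGF receptor ligand gene Tgfa stood at 1.24, 3.55, 4.11 and 1.23 CPM, 2.87-fold higher (1.94 to 4.34). L1cam, an adhesion gene, stood at 3.64, 9.54, 8.16 and 3.61 CPM, and the ligand gene Nrg1 at 0.248, 1.08, 0.794 and 0.144 CPM, 2.62-fold and 4.36-fold higher at 8 h. Nrg1 was measured only through the library labelled 8 h, in which it was highest, and its fold rests on few reads. Hbegf, another ligand that ADAM17 releases, was 2.09-fold higher (1.98 to 2.22) at 8 h, beside the Adam17 fold of 0.879 in the same libraries.

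Of 35 matrix genes 21 were measured, with 3 higher and 2 lower at 8 h, 2 higher and 2 lower at 16 h and 0 called at 20 h, and medians of 0.06, -0.03 and -0.04. The fibrillin-1 gene Fbn1 stood at 33.9, 76.7, 75.2 and 30.7 CPM, 2.26-fold higher (2.10 to 2.44) at 8 h, and Col5a1 at 74.9, 162, 163 and 83.6 CPM. Decorin, encoded by Dcn, was 3.20-fold lower (2.50 to 4.14) at 8 h, and Col3a1 stood at 168, 81.8, 83.2 and 163 CPM. Vcan stood at 645, 377, 387 and 626 CPM, low in the same libraries as Adamts1. The 3 lists were written for this description, and nothing particular to them is read from these counts.

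**Figure D4:**
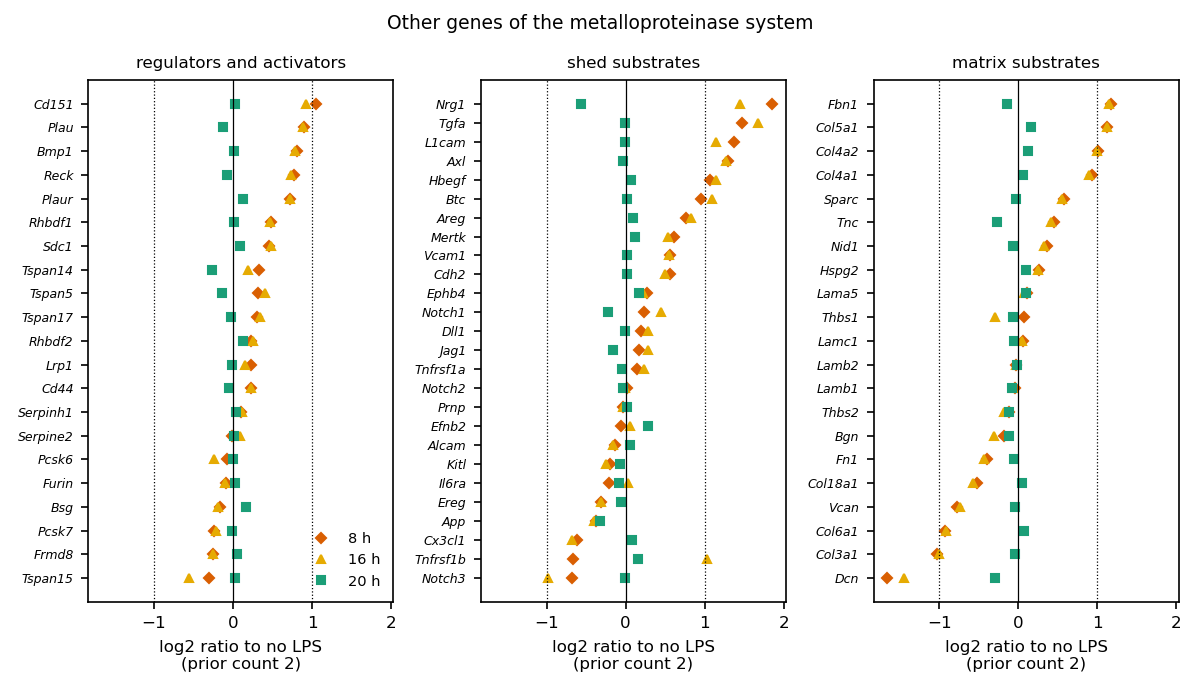
Points give the log2 ratio to no LPS (horizontal axis, prior count 2) at 8, 16 and 20 h for the measured genes of the 3 lists, with 2-fold marked by dotted lines. Points for 20 h lie within the 2-fold lines, and Axl, Tgfa, Nrg1 and Fbn1 lie above the upper line at 8 h and 16 h.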

How the data were processed

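The file that the authors deposited holds raw counts, whole numbers of reads for each gene; the submitters' processing notes name STAR, featureCounts and mm10. Their versions, annotation, strand setting and rule for shared reads are not stated in the labels or the file; 10 of the 28 measured members share exon bases with another gene in GENCODE M21 (Mmp19 789 bases with Tmem198b, Adam15 1263 with 4731419I09Rik, Adamts7 122 with Tbc1d2b), so those counts are uncertain. Columns were matched to samples by title and grouped by treatment label. Symbols matched 38872 of 39056 identifiers (99.5%), and coordinates and exon lengths are those of GENCODE M21, counted from 1. Whether the label hours are times since a single injection is not stated.

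Counts were scaled with edgeR 4.0.16 TMM factors from all 4 libraries, log2 ratios used a prior count of 2, and intervals are Clopper-Pearson 95% intervals for 2 counts. Without molecular identifiers, these intervals and the limit of 3 reads behind a count of 0 cover counting error only. The trend used glmQLFit and glmQLFTest on hour (2 residual degrees of freedom), with DESeq2 1.42.0 as an alternative; the scripts were tested on simulated data. Named genes were all measured members, the 3 highest unmeasured ones and, per list, the 4 measured genes with the largest absolute log2 ratio to no LPS; Furin, Hbegf, Vcan and the low members Mmp2, Mmp7, Mmp8, Timp3, Timp4 and Adamts5 were added after their values were seen, as were the promoter motifs. An item of the list of regulators is not reported here. Members and lists were chosen with earlier results of these data known.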

Additional observations from a re-analysis of the deposited data

How the results depend on the processing

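Scaling by library size, DESeq2 size factors or upper quartiles changed none of the 10 counts of called members and no direction of the log2 ratios of Timp1, Timp2, Adamts6, Adamts7 and Mmp23. Prior counts of 0.5 or 10, which bear on the log2 ratios alone, changed no direction of those 5 genes. The counts depended on the thresholds. A fold threshold of 1.5 gave 4 higher and 3 lower at 8 h against no LPS, 4 higher and 3 lower at 16 h against no LPS, and 3 higher and 4 lower at 20 h against 16 h. A fold threshold of 4 left 1 member, Mmp23 lower at 8 h, with 0 higher at 8 h, 0 higher and 0 lower at 16 h, and 0 higher and 0 lower at 20 h against 16 h. A minimum of 10 CPM gave 0 lower at 8 h and at 16 h and 0 higher at 20 h against 16 h, and it left 2 higher at 16 h against no LPS and 2 lower at 20 h against 16 h, since Mmp23 and Adamts7 lie below that level. A stricter interval level (error of 0.1% in place of 5%) also ended the Adamts7 calls, with 2 higher at 16 h against no LPS and 2 lower at 20 h against 16 h. With no minimum level Adam1a joined the lower members, at 6 reads against 24 for 16 h against no LPS (2 lower) and 6 against 17 for 16 h against 8 h (1 lower), and Adamts8 the higher ones at 16 h (10 against 2 reads). With no fold threshold, an alternative chosen after seeing the data, the counts were 10 higher and 11 lower at 8 h, 10 and 11 at 16 h, 3 and 1 at 20 h against no LPS, 1 and 2 at 16 h against 8 h, and 11 and 9 at 20 h against 16 h.

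The trend in edgeR called 0 members under every alternative run, including each library left out in turn (0 to 0). Without the library labelled 20 h, 7 of 28 members and 2073 of 11716 genes had an unadjusted p under 0.05 and the smallest adjusted p of a member was 0.248; without no LPS these were 2 of 28 members, 616 of 11746 genes and 0.776, and with all libraries the smallest adjusted p was 0.9999. No paired analysis was possible because each label has 1 library. Depth limits most the measured members with 30 reads or fewer in at least 1 library, which were Mmp10, Mmp15, Mmp23, Adamts7 and Adamts12.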
